A study of Homo sapiens with 50 samples.

Results

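The arrays compared here came from bystander cells, which shared a dish with irradiated cells but were not hit themselves. Of the 50 arrays of the series, 20 were bystander arrays, 10 labelled H1299shRAD9 and 10 labelled H1299. H1299 is a human non-small cell lung carcinoma line. In each line 5 arrays carried RNA of bystander cells from dishes in which the bystanders were later scored positive for micronucleus induction (BP), and 5 carried RNA of bystander cells from dishes scored negative (BN). The cells grew on concentric Mylar-bottomed dishes in which α particles (4He ions, 125 keV/µm) delivered 1 Gy to the cells on the thin Mylar and were stopped by the thick Mylar under the bystander cells. RNA was taken 4 h after exposure. H1299shRAD9 cells were infected with a pSUPER.retro.puro vector that expresses a short hairpin against RAD9 and were kept under puromycin selection, whereas H1299 cells were the untransfected parental line, so that the vector and the selection differ between the lines along with the hairpin. The study used 2 stable transfectants interchangeably, and the labels do not say which of them an array came from. Sham-irradiated cells (CTL, 0 Gy, 5 arrays per line) served for comparison. The labels call the arrays of a group biological replicates and do not tie them to separate cultures, so the p-values measure the spread between these arrays.

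RAD9 forms a ring-shaped DNA clamp with HUS1 and RAD1. A loader that contains RAD17 places the clamp at DNA damage, where it recruits TOPBP1 and helps to activate the kinase ATR and its target CHK1. Bystander responses are changes seen in cells that were not hit but neighbour irradiated ones. Known carriers are gap junctions, built from connexins, and secreted factors such as cytokines, TGF-beta and prostaglandins, with NF-kappaB, MAP kinases and reactive oxygen acting in the receiving cell. The question of the comparison is which differences between the lines hold in cells of this kind.

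Levels are given as log2 processed intensity relative to the median of each array, so that 0 is the array's median probe. A level is not compared between genes. The microarrays measured pooled RNA of many cells, and fewer cells that express a gene cannot be told apart from less RNA per cell. The share of probes well above background was 58.1% to 73% on the H1299shRAD9 arrays and 59.7% to 70.8% on the H1299 arrays, a difference of −1.95 percentage points (2-sided exact permutation test within BP and BN, p = 0.268). Median processed intensity spanned 154.1 to 280.9 and 97.15 to 349.4 (exact permutation test, p = 0.593). VIM, KRT8, KRT18 and KRT19, which mark epithelial tumour lines of this kind, were well above background on all 20 arrays, and EPCAM was on 3. Of the other cell types' markers, HBB, LUM, PDGFRA, PDGFRB and SFTPA1 were at 0 arrays. The fibroblast gene DCN was well above background on 18 arrays, COL1A1 on 2 and COL3A1 on 1, and the lung gene SFTPB on 1. The probes of the leukocyte genes PTPRC, CD79A and CD68 and of the lung genes SFTPC, AQP5, AGER and SCGB1A1 were well above background on all 20.

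Some arrays stood apart from the others of their line. The 4 H1299shRAD9 arrays numbered 1 and 2 lay at 27.5 to 32.6 on principal component 3 of the tested features, which held 12.2% of the variance, and the other 6 H1299shRAD9 arrays lay at −12.6 to −0.206. Their levels did not overlap those of the other 6 arrays for 3282 of 12185 tested features (26.9%), against 313 (2.57%) for the same split within H1299. Among the H1299 arrays, BP replicate 2 lay at 26.4 on that component and was the highest of the 20 arrays on the first component. BP replicate 2 with BN replicates 1 and 2 formed a set of 3 arrays with high levels of integrated stress response genes. Their 5′ to 3′ index was −1.588, the lowest of the 20 arrays, −1.492 and −1.276, and its bearing on these levels was not tested. Each main count is therefore also given without the 4 H1299shRAD9 arrays, without the 6, or without the 3 H1299 arrays. The fits that lack replicates 1 and 2 or replicates 3 to 5 of H1299shRAD9 are called the reduced fits below. The first principal component, with 30.9% of the variance, separated the lines, at −38 to −5.47 for H1299shRAD9 and 2.87 to 67.7 for H1299. Component 2 held 18.3% of the variance and is not shown.

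**Figure D1:**
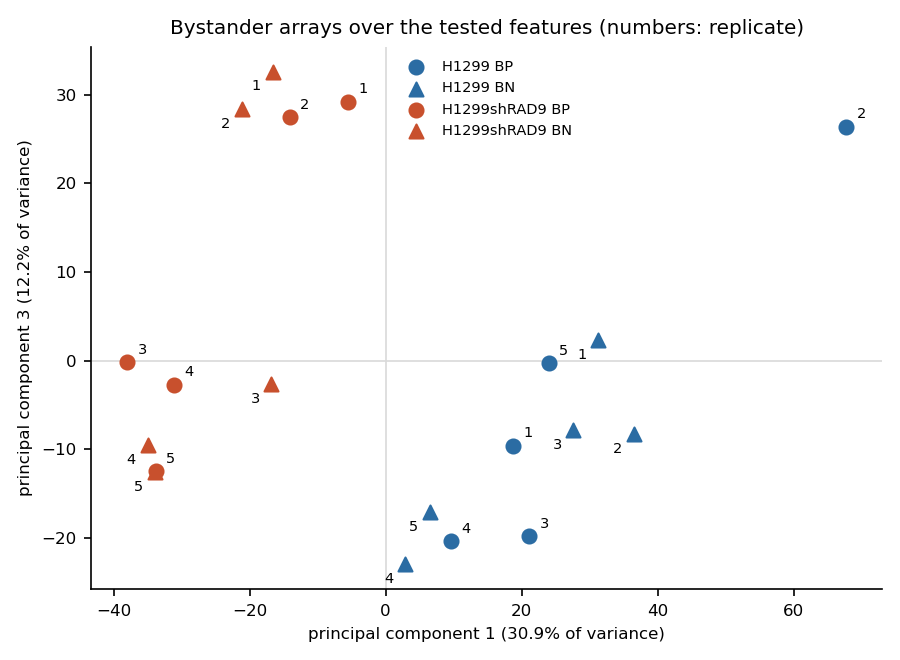
Each point is a bystander array, placed by its first (x axis) and 3rd (y axis) principal component over the tested features, with colour for the line, circles for BP, triangles for BN and the replicate number beside it. The lines separate along x, and H1299shRAD9 replicates 1 and 2 sit at 27.5 to 32.6 on y, above the other H1299shRAD9 arrays.

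The targeted transcript was little lower on the H1299shRAD9 arrays. RAD9A was read by 1 feature at chr11:67165480-67165539 of hg19, plus strand, and the feature gave signal well above background throughout. The lowest, median and highest level of RAD9A were 3.34, 3.73 and 3.98 on the H1299shRAD9 arrays and 3.45, 3.84 and 4.03 on the H1299 arrays. The ranges overlapped over most of their length. The mean difference was −0.12, so that the level was 92.1% of that in H1299 (95% interval 79.3% to 107%, exact permutation test within BP and BN, p = 0.24). In CTL cells the difference was −0.36 (exact permutation test, p = 0.0159). Without H1299shRAD9 replicates 1 and 2 the bystander difference was −0.26 (exact permutation test, p = 0.029), and without replicates 3 to 5 it was 0.09 (p = 0.44). After 75th percentile scaling it was −0.22 (exact permutation p = 0.0421) and after quantile normalization −0.23 (p = 0.0359). The feature reads the transcript and not the protein. The comparison below is between the arrays labelled H1299shRAD9 and H1299.

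Of the other tested genes of the clamp and its loader 0 were called in limma, 0 in the random-variance test and 0 at an unadjusted p under 0.05. Of the 10 genes in this list, 8 passed the filter on background and 4 also passed the filter on variation. RAD17, the loader's large subunit, differed by 0.09, RFC3 by 0.02 and RFC4 by −0.07, and HUS1B, a relative of HUS1, by 0.39 (limma, adjusted p = 0.291). RAD1, which varied too little to be tested, spanned 3.75 to 4.05 in H1299shRAD9 and 3.77 to 4.12 in H1299. HUS1 was well above background on 3 and 5 arrays, and RAD9B, the paralog of RAD9A, on 0. In the ATR and CHK1 list 1 of 6 tested genes rose, TIPIN, a partner of TIMELESS at the replication fork (0.76 ± 0.14 SE, limma, adjusted p = 0.000361), and ATR itself differed by −0.1.

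The lines differed widely in bystander cells. A feature was called at p under 0.005 and a Benjamini-Hochberg false discovery rate under 10% in limma, with BP or BN as a block. By this rule 2858 of 12185 tested features (23.5%), which name 2318 genes, differed between the lines. Of these, 1809 (14.8% of those tested) were higher and 1049 (8.61%) were lower in H1299shRAD9. At an unadjusted p under 0.05 there were 5485 features (45%). The median size of a called difference was 0.601 on the log2 scale, and the 95% interval of a difference had a median half-width of 0.33. The median over all tested features was 0.164, so that small rises and small falls are to be read against that shift.

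How the calls divided into rises and falls depended on the scaling of the arrays. On the same features, rises made up 63.3% of the calls with the array median over probes, 69.6% with the median over spots, 57.3% with the median over the tested features, 46.9% with quantile normalization and 42.8% with 75th percentile scaling. After normexp background correction the share was 78.9%. Leaving normexp aside, 1861 features (15.3%) were called in the same direction under all 5 scalings. This set held 902 rises (7.4%) and 959 falls (7.87%).

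The count also depended on which arrays were included. Without H1299shRAD9 replicates 1 and 2 there were 3236 called features, and without replicates 3 to 5 there were 1434. The latter fit kept 4 H1299shRAD9 arrays against 10 of H1299, so fewer arrays and different arrays cannot be told apart in its count. In both reduced fits 672 of the 2858 features (5.51% of those tested) were called again in the same direction, 309 higher and 363 lower, and 663 of them (5.44%) were also called under all 5 scalings. Without the 3 H1299 arrays 2890 features were called, which held 2173 of the 2858 (76%). The 10 arrays of a line did not overlap the 10 of the other for 489 features (4.01%), 214 higher and 275 lower in H1299shRAD9.

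Among the genes with the largest falls were enzymes, a growth factor binding protein and an inhibitor of TGF-beta family signalling. PDE2A, a phosphodiesterase that breaks down cAMP and cGMP, had a lowest, median and highest level of −0.95, −0.46 and −0.23 in H1299shRAD9 and 2.80, 3.09 and 4.3 in H1299. Every H1299shRAD9 array was far below every H1299 array. PDE2A fell by 3.81 ± 0.18 (SE, n = 10 per line) on the log2 scale, or 14-fold (limma, adjusted p = 6.5e-13), at chr11:72287250-72287309 of hg19, minus strand.

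FTCD, an enzyme of histidine breakdown that feeds the folate pool, lay between −1.29 and −0.53 in H1299shRAD9, with a median of −0.88, and between 1.77 and 2.65 in H1299, with a median of 2.04. The arrays did not overlap, and FTCD fell by 3.05 ± 0.13, or 8.26-fold (limma, adjusted p = 2.71e-13), at chr21:47557154-47557213. BAMBI, a decoy receptor that dampens TGF-beta family signals, had levels of −1.05, −0.61 and 1.05 (lowest, median and highest) against 2.45, 2.83 and 3.05, without overlap. The 4 H1299shRAD9 arrays numbered 1 and 2 were the highest of their line for BAMBI, and its difference of −2.95 ± 0.26 (7.74-fold, adjusted p = 3.52e-08) was −3.59 without them and −2 without the other 6. IGFBP2, which binds insulin-like growth factors, spanned −0.77 to 0.18 with a median of −0.12 in H1299shRAD9 and 2.01 to 2.58 with a median of 2.30 in H1299. It fell by 2.56 ± 0.13, or 5.91-fold (limma, adjusted p = 1.94e-12; chr2:217529086-217529145), with all arrays of a line on 1 side. B3GNT3, a glycosyltransferase of O-glycan synthesis, lay at 0.08 to 1.68 with a median of 1.08 against 2.86 to 4.12 with a median of 3.23. Its fall was 5.07-fold (adjusted p = 1.38e-08).

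The homeobox transcription factors TLX3 (4.92-fold, adjusted p = 1.31e-06) and PRRX2 (4.9-fold, adjusted p = 1.39e-07) were lower in H1299shRAD9, as was the carboxypeptidase CPQ (4.84-fold, adjusted p = 2.3e-05). CPQ differed by −3.07 without H1299shRAD9 replicates 1 and 2 and by −1.09 without replicates 3 to 5. ASS1, which makes the precursor of arginine, spanned −2.77 to 0.12 with a median of −0.37 in H1299shRAD9 and 0.70 to 2.91 with a median of 1.17 in H1299. The lines did not overlap for ASS1 although each was spread widely, and the fall was 5.32-fold (adjusted p = 4.26e-05). The transcript ENST00000372591, which has no gene symbol in the tables used, fell 5.89-fold (adjusted p = 2.64e-09).

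For DSP and NUPR1 the size of the difference came mostly from a subset of arrays. DSP, the plaque protein that ties desmosomes to keratin filaments, was at −1.73 to −1.33 on the 4 H1299shRAD9 arrays numbered 1 and 2 and at 3.23 to 3.42 on the other 6, against 4.06 to 5.04 in H1299. Both H1299shRAD9 sets were below all H1299 arrays. The mean difference of −2.86 ± 0.70 (7.25-fold, adjusted p = 0.00413) was −0.95 without the 4 arrays and −5.72 without the 6. DSP was well above background on 2 of the 4 arrays, and a second DSP probe on 0 of them. The differences that include those 4 arrays thus rest partly on signal near background. NUPR1, a small chromatin protein induced by stress, spanned 0.19 to 1.40 in H1299shRAD9 with a median of 0.51. In H1299 it was at 6.233 on BN replicate 1, 6.052 on BN replicate 2 and 6.27 on BP replicate 2, and at 1.619 to 2.106 on the other 7 arrays. All H1299 arrays were above all H1299shRAD9 arrays, and the difference of −2.54 ± 0.60 (5.83-fold, adjusted p = 0.00307) was −1.25 ± 0.17 without those 3 arrays (adjusted p = 5.36e-05). The 3 arrays were picked on stress response genes that include NUPR1.

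The largest rises were smaller than the largest falls. ADAMTS6, a secreted metalloprotease, had levels of 0.84, 1.21 and 1.78 (lowest, median and highest) in H1299shRAD9 and −1.52, −0.38 and 0.11 in H1299. The lines did not overlap, and ADAMTS6 rose by 1.74 ± 0.20, or 3.35-fold (limma, adjusted p = 1.83e-06; chr5:64444831-64444890 of hg19, minus strand). LRP4, a receptor for agrin, spanned 1.26 to 2.22 with a median of 1.94 against −0.05 to 0.85 with a median of 0.54. It rose 2.52-fold (adjusted p = 1.37e-06).

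THBS1, a matrix glycoprotein that activates latent TGF-beta, lay at 4.89 to 6.10 with a median of 5.22 in H1299shRAD9 and at 3.48 to 4.53 with a median of 4.21 in H1299. There was no overlap, and THBS1 rose by 1.33 ± 0.19, or 2.51-fold (adjusted p = 2.78e-05; chr15:39888831-39888890). CDO1, which starts the breakdown of cysteine, spanned 4.58 to 5.15 with a median of 4.79 against 3.30 to 4.15 with a median of 3.50, and rose 2.36-fold (adjusted p = 3.88e-07). The adrenergic receptor ADRA2C rose without overlap of the lines, from a median of 2.60 to 3.73 (2.23-fold, adjusted p = 1.46e-06). ESS2, a spliceosome-associated protein, rose 2.58-fold (adjusted p = 2.64e-06), and NAA38, a subunit of an N-terminal acetyltransferase, rose 2.23-fold (adjusted p = 0.000257). The feature named for RNU1-5 rose 2.6-fold, but U1 small nuclear RNA has near-identical copies and the copy that gave the signal is uncertain. The rises of this set also held the transcripts THC2610134, AK123993 and ENST00000445770, at 1.22, 1.21 and 1.16 on the log2 scale.

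**Figure D2:**
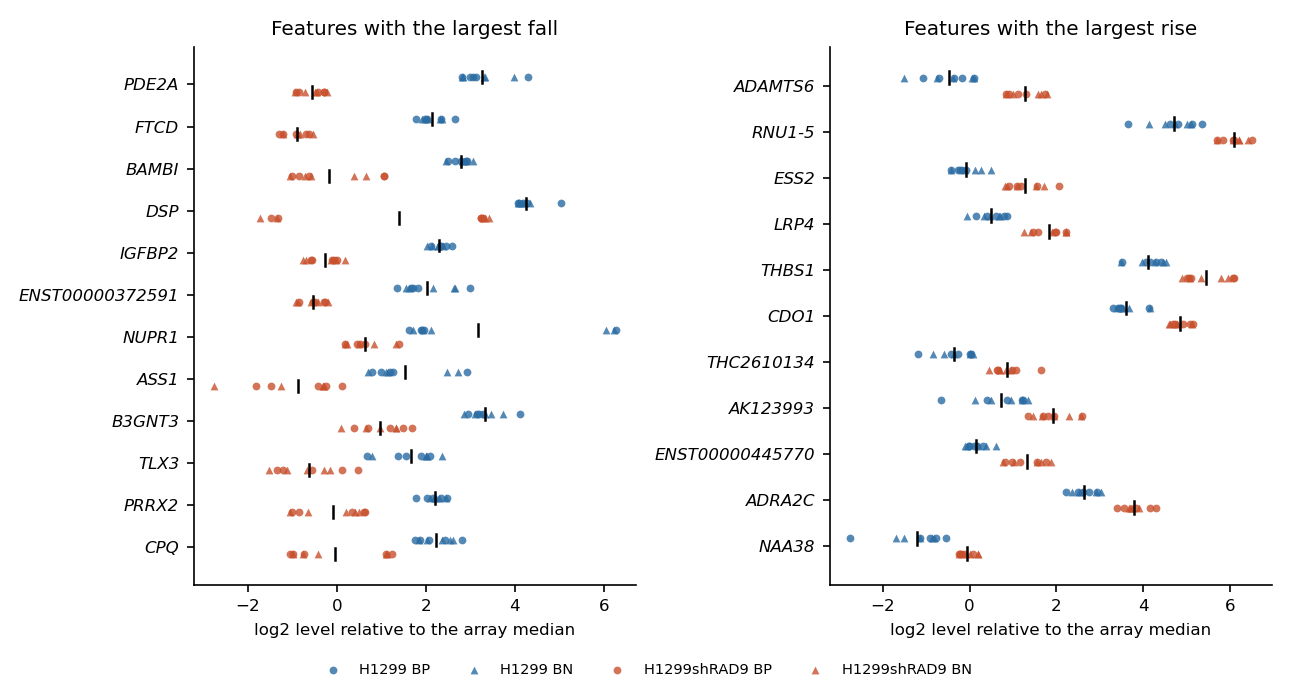
Levels of the 12 features with the largest fall (left) and of 11 of the 12 with the largest rise (right) among features whose 10 and 10 arrays do not overlap and which were well above background on at least 8 arrays of each line. Each point is an array (x axis, log2 level relative to the array median), circles are BP, triangles are BN, colours are the lines, and the black bar is the mean of 10 arrays. DSP, BAMBI and CPQ divide the H1299shRAD9 arrays and NUPR1 divides the H1299 arrays.

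These 24 features were taken from 395 that met the rule of no overlap and of signal in both lines (185 higher, 210 lower). Since no overlap was part of the rule, it is a description of them and no further test. All 24 were called under all 5 scalings and 22 in both reduced fits. NUPR1 and AK123993 were the exceptions.

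A further list held the genes that the study had measured by quantitative PCR. The study chose them on arrays of this series, so they are not independent evidence of direction. In bystander cells 5 of these 10 genes fell and 1 rose. NNMT, which methylates nicotinamide, spanned −3.15 to −0.28 with a median of −1.91 in H1299shRAD9 and 2.15 to 3.99 with a median of 2.67 in H1299. The lines lay far apart, and NNMT fell by 4.51 ± 0.36 (limma, adjusted p = 9.91e-09), although it was well above background on only 6 of the 10 H1299shRAD9 arrays. LIMCH1, which promotes actin stress fibres, lay at −2.57 to −1.14 against 1.49 to 1.87, and fell by 3.33 ± 0.15 (adjusted p = 2.71e-13), with 7 of 10 H1299shRAD9 arrays well above background. PRDM1, a transcriptional repressor, rose by 2.03 ± 0.37 (adjusted p = 0.000394), from −1.30 to 0.43 in H1299 to 0.07 to 3.14 in H1299shRAD9. PDE2A, FTCD and NUPR1 are described above. DOK3 (0.54, adjusted p = 0.0996), CD86 (1.03, adjusted p = 0.031), ADCY7 (0.22, adjusted p = 0.791) and STAT6 (−0.80 ± 1, adjusted p = 0.559) were not called. ADCY7 and STAT6 divided the H1299shRAD9 arrays, as described below, and in the authors' processed values STAT6 differed by 1.81 (limma, adjusted p = 8.77e-09).

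A further set of genes was measured in H1299 but not well above background in any H1299shRAD9 bystander array. Over 34127 probes there were 32 such features in 29 genes, all 10 H1299 arrays being well above background. The reverse pattern was seen for 1 feature. For these features the fold is a lower bound against the dimmest signal that counts as above background. ENTREP1 was at least 16.3-fold higher in H1299, with measured means of −3.73 and 1.87 in H1299shRAD9 and H1299. NEFM, a neurofilament subunit, was at least 11-fold higher. CCDC149 (at least 9.41-fold), RTL6 (8.46-fold), RFPL4A (8.4-fold), GPM6B, a membrane proteolipid (8.29-fold), PPARG, a nuclear receptor of lipid metabolism (6.32-fold), and TNS1, a focal adhesion protein (5.63-fold), followed. The second probe of GPM6B gave at least 4.79-fold and that of PPARG at least 2.37-fold. Of the 32 features 28 showed the same pattern of presence on the CTL arrays. SERPINA3, an acute-phase protease inhibitor, was at least 7.09-fold higher in H1299shRAD9 and was well above background on 5 of 5 H1299shRAD9 and 1 of 5 H1299 CTL arrays.

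Of 14 tested epithelial genes, which include those of cell junctions, 5 fell and 1 rose (42.9% called, against 14.8% higher and 8.61% lower among all features), with a median of −0.34 against 0.164 over all features, and 3 of the falls held in both reduced fits. CLDN3, a tight junction claudin, had levels of 0.85, 0.98 and 2.07 (lowest, median and highest) in H1299shRAD9 and 2.26, 2.43 and 2.85 in H1299. The lines did not overlap, and CLDN3 fell by 1.1 ± 0.18 (adjusted p = 0.000147). JUP, the desmosomal plakoglobin (−1.03), and CDS1 (−1.02, well above background on 7 of 10 H1299shRAD9 arrays) fell too, but not in both reduced fits, and OCLN, another tight junction protein, rose by 0.44. After normexp correction the median of the list was −0.01 with 1 rise and 3 falls.

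Falls were also more frequent than rises among 15 tested mesenchymal genes, with 4 against 1 (33.3% called) and a median of −0.26. TWIST2, a transcription factor of mesenchymal cells, fell by 1.18 ± 0.11 (adjusted p = 8.47e-08), with 2.04 to 2.82 in H1299shRAD9 and 3.19 to 3.88 in H1299. COL6A2, a chain of collagen VI, fell by 1.01 ± 0.13 (adjusted p = 1.13e-05). Both held in both reduced fits. TNC, the matrix protein tenascin C, differed by −1.63 ± 0.47 (adjusted p = 0.0121) in the full fit, −2.86 without H1299shRAD9 replicates 1 and 2 and 0.22 without replicates 3 to 5. S100A4, a calcium-binding protein of motile cells, rose by 0.62, and this call was lost under at least 1 other scaling.

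Actin regulators held 3 falls and 0 rises among 21 tested genes (14.3% called, below the 23.5% of all features), and their median of 0.08 was close to that of all features. The 3 were LIMCH1, DMTN, an actin-bundling protein (−1.81 ± 0.11, adjusted p = 2.44e-11), and PDLIM1, a LIM protein of stress fibres (−1.32 ± 0.12, adjusted p = 9.34e-08). DMTN lay at 1.44 to 1.99 against 3.13 to 3.87, and PDLIM1 at −0.53 to 0.31 against 1.05 to 1.57. None of their arrays overlapped between lines, and all 3 held in both reduced fits.

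Integrins and laminins, which anchor cells to the matrix, moved in both directions, with 4 rises and 3 falls among 24 tested (29.2% called). ITGA4, the α4 integrin, rose by 1.06 ± 0.14 (adjusted p = 1.32e-05), with 4.37 to 5.09 in H1299shRAD9 and 2.97 to 3.99 in H1299. ITGB8, which partners αv in the activation of TGF-beta, rose by 1.14 ± 0.18 (adjusted p = 6.33e-05), and ITGB2, a leukocyte integrin chain, by 0.54 ± 0.11 (adjusted p = 0.00107). LAMA3, a laminin chain of epithelial basement membranes, differed by −1.69 ± 0.27 (adjusted p = 0.000109) and was well above background on 6 of 10 H1299shRAD9 arrays. ITGA5, the fibronectin receptor chain, fell by 0.59 ± 0.11 (adjusted p = 0.000395). LAMB3, another chain of that laminin, rose by 0.56 ± 0.13 (adjusted p = 0.00317) but not in both reduced fits nor under all scalings, whereas the other 6 calls held in both.

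All 5 called genes of the TGF-beta list rose, out of 19 tested, with a list median of 0.05. Besides THBS1, they included PMEPA1, a feedback inhibitor of the pathway (1.16 ± 0.21, adjusted p = 0.000402), CCN2, a matricellular target (0.90 ± 0.19, adjusted p = 0.00132), and TGFB2, a ligand (0.83 ± 0.22, adjusted p = 0.00671). PMEPA1 spanned 2.15 to 3.12 in H1299shRAD9 and 0.91 to 3.11 in H1299, where BN replicate 2 was the highest H1299 array. The lines overlapped for it. THBS1 and PMEPA1 held in both reduced fits, whereas CCN2 and TGFB2 did not. The 5 rises stood under every scaling but normexp, where there were 4. The share called, 26.3%, was near the 23.5% of all features.

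Of 50 genes in the list of interferon-stimulated genes, 40 passed the filter on background and 27 were tested. By the rule, 8 fell and 0 rose (29.6% called, against 8.61% lower and 14.8% higher among all features), with a median of −0.30, and 18 of the 27 differences were below 0. IFI44 had levels of −0.61, −0.41 and −0.02 (lowest, median and highest) in H1299shRAD9 and 0.08, 0.42 and 1.62 in H1299. These did not overlap, and IFI44 fell by 0.94 ± 0.16 (adjusted p = 0.000249). ISG20, an RNA exonuclease, fell by 0.79 ± 0.14 (adjusted p = 0.000339), from 4.15 to 5.13 in H1299 to 3.47 to 4.28 in H1299shRAD9. IFIT1 and IFIT2, which bind viral RNA, fell by 0.70 ± 0.15 and 0.73 ± 0.19 (adjusted p = 0.00172 and 0.00663), PARP9 by 0.66, UBE2L6, a conjugating enzyme for ISG15, by 0.61, and SP110, a nuclear body protein, by 0.58 ± 0.12 (adjusted p = 0.0011). GBP1, an interferon-induced GTPase, differed by −0.95 ± 0.25 (adjusted p = 0.00567) and was well above background on 6 of 10 H1299shRAD9 arrays.

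These falls were uneven across the arrays. SP110 was the only member of the list called in both reduced fits. For GBP1 the difference was −1.44 without H1299shRAD9 replicates 1 and 2 and −0.21 without replicates 3 to 5, and for PARP9 it was −1.02 and −0.11. IFIT2 was not called without the 3 H1299 arrays (−0.46, adjusted p = 0.0219). The count was 0 rises and 11 falls after 75th percentile scaling, 0 and 8 after quantile normalization, 0 and 1 after normexp correction, and 1 and 6 without the 3 H1299 arrays. In CTL cells 9 of the 27 fell and the median was −0.58. Upstream of these genes, 2 of 11 tested interferon receptor and signalling genes rose and 1 fell (27.3% called, near the 23.5% of all features). SOCS3, an inhibitor of cytokine receptors, rose by 0.41 ± 0.09 (adjusted p = 0.00198) and held in both reduced fits, IFNAR1, a type I interferon receptor chain, rose by 0.59, and SOCS1 fell by 0.61. In the antigen presentation list 2 of 12 tested genes rose and 3 fell (41.7% called, against 23.5% of all features). PSMB10, an immunoproteasome subunit, rose by 0.59 ± 0.10 (adjusted p = 0.000268) and TAP2 by 0.56. The falls included HLA-E and HLA-F, by 0.36 and 0.38, and 1 of the 3 falls was called under all 5 scalings. Without the 3 H1299 arrays this list held 2 rises and 0 falls, and HLA-F differed by −0.27 (adjusted p = 0.0423). HLA class I genes resemble each other closely and their probes can share signal.

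The promoters of 4 of the falling genes are shown because interferon-induced genes are classically driven through a paired GAAA element. The sequences are the 250 bases upstream of the gene start from RefSeq (GRCh38.p14), with capitals where GAAANNGAAA matched on either strand. They are GBP1 (chr1:89065209-89065458, minus strand), IFI44 (chr1:78649539-78649788, plus), IFIT1 (chr10:89392373-89392622, plus, 2 matches) and ISG20 (chr15:88638766-88639015, plus).
GBP1: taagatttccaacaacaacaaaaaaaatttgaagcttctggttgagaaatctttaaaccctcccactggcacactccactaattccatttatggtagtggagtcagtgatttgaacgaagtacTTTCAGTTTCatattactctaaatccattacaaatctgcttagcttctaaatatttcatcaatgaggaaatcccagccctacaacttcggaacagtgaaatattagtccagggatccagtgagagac
IFI44: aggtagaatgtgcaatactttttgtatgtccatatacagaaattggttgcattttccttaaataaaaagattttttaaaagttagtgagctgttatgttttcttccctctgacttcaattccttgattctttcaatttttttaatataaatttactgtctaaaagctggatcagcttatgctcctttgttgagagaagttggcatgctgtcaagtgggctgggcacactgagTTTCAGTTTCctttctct
IFIT1: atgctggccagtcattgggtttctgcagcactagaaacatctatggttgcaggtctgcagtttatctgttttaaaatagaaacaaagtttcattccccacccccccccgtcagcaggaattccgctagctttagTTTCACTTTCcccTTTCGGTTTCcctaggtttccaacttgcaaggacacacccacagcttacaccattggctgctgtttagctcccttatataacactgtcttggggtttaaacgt
ISG20: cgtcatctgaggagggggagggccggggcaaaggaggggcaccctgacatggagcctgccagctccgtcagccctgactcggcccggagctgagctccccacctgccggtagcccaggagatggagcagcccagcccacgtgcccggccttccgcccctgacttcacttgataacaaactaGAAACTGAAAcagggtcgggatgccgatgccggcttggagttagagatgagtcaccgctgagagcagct
The motif was found in 4 of the 7 called genes with a promoter in the table (57.1%), in 9 of 17 that were tested but not called (52.9%), in 10 of 18 that were not tested (55.6%), and in 839 of 27305 promoters in all (3.07%). PARP9, SP110 and UBE2L6 had no match in this window. The share was about the same in the genes that fell, in those tested but not called and in those not tested.

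Among stress and metabolic lists, 4 of 15 tested NRF2 targets fell and 0 rose (26.7% called, near the 23.5% of all features). Without the 3 H1299 arrays the list held 2 rises and 3 falls. AKR1C3, an aldo-keto reductase, lay at −0.10 to 0.11 in H1299shRAD9 and at −0.02 to 1.86 in H1299. The H1299shRAD9 arrays were tightly grouped at the low end of H1299, and AKR1C3 fell by 1.09 ± 0.16 (adjusted p = 4.78e-05), the only fall of the list called in both reduced fits. The ferritin chains FTL and FTH1 fell by 0.62 and 0.55. Of 6 tested glutathione transferases GSTM1, GSTM3 and GSTO2 fell by 0.60, 0.43 and 0.57 (50% called, against 23.5% of all features). The list median was −0.48, and after normexp correction none of them was called. GPX1 rose by 0.47 in the list of oxidant sources and antioxidants, a call lost under at least 1 other scaling.

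Integrated stress response genes depended on which H1299 arrays were included. With all arrays 3 of 37 tested genes fell and 0 rose (8.11% called, against 23.5% of all features), with a median of −0.31. The 3 were NUPR1, PCK2 (−1.31) and PHGDH (−1.06). H1299 BP replicate 2 and BN replicates 1 and 2 were set apart because of high levels of these genes. All 37 were higher on them than on any of the other 7 H1299 arrays, which describes that choice and is no further test. PCK2, a mitochondrial enzyme of phosphoenolpyruvate synthesis, was at 4.064, 3.901 and 4.727 on those 3 arrays and at 1.426 to 1.835 on the 7. Without the 3 arrays 8 genes were called higher and 1 lower in H1299shRAD9, with a median of 0.29. In that fit 2890 of all 12185 features were called, 64.1% of them higher, and the median over all features was 0.168. The share of the list that was called was thus near that of all features. ATF4, the transcription factor of the response, then differed by 0.59 ± 0.12 (adjusted p = 0.00111), SLC7A5, an amino acid carrier, by 1.14 ± 0.23 (adjusted p = 0.00121), and SLC7A11, the cystine carrier, by 0.69 ± 0.15 (adjusted p = 0.00188). The sign of the list median thus reversed without 3 arrays that had been picked on these same genes. The p-values after that choice describe the remaining arrays and are no independent test of the list. For comparison, the same 3 arrays did not overlap the other 7 for 1941 of all 12185 features (16%).

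HIF1 targets held 7 rises and 3 falls among 26 tested (38.5% called, against 14.8% higher and 8.61% lower among all features). Their median was 0.31, against 0.164 over all features. Of the 7 rises 3 were called under all 5 scalings. ANGPTL4, a secreted inhibitor of lipoprotein lipase, rose by 1.06 ± 0.19 (adjusted p = 0.000312), with 5.87 to 7.47 against 4.43 to 5.97, and was the only target called in both reduced fits. ADM, a vasodilator peptide (0.73), and LOXL2, a collagen crosslinker (0.63), rose, and SLC2A3, a glucose carrier (−0.72), HK1, a hexokinase (−1.03), and the collagenase MMP1 (−1.03) fell. The counts were 3 rises and 4 falls after quantile normalization. For HK1 the difference was −1.59 without H1299shRAD9 replicates 1 and 2 and −0.19 without replicates 3 to 5.

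Of 27 tested immediate early genes 5 rose and 1 fell (22.2% called, near the share of all features). KLF2, a transcription factor, spanned 5.93 to 6.68 in H1299shRAD9 and 5.09 to 5.98 in H1299, rose by 0.84 ± 0.14 (adjusted p = 0.000123) and held in both reduced fits. NR4A1 (1.07), CCN1 (0.74), MYC (0.65) and IER2 (0.47) rose and BTG2 (−0.53) fell without holding in both.

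The share called was 23.1% in base excision and mismatch repair, 10% in double-strand break repair and 21.1% among S phase genes, none above the 23.5% of all features, and the calls were rises. After 75th percentile scaling the repair lists held 3 rises and 1 fall, and 2 rises and 2 falls. UNG, which removes uracil from DNA, rose by 0.66 ± 0.11 (adjusted p = 0.00019), with 7.85 to 8.50 in H1299shRAD9 and 7.23 to 7.84 in H1299. TDG, which removes thymine from mismatches, rose by 0.60 ± 0.10 (adjusted p = 0.000134), with 6.07 to 6.57 against 5.46 to 5.94. Neither overlapped between the lines and both held in both reduced fits. MSH3, of mismatch repair, rose by 0.47, which gave 3 rises and 0 falls among 13 tested genes of base excision and mismatch repair. In double-strand break repair 2 of 20 rose, RAD51D (0.46 ± 0.11, adjusted p = 0.00322) and NHEJ1 (0.45, not called in both reduced fits).

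Among 19 tested S phase genes 4 rose and 0 fell, with a median of 0.30. They were TIPIN, UNG, UHRF1, a maintenance factor of DNA methylation (0.59), and NASP, a histone chaperone (0.48). UHRF1 and NASP were not called under all scalings. Of 33 tested genes of the G2 and M phase list 0 were called in limma and 0 in the random-variance test, with 3 at an unadjusted p under 0.05 and a median of 0, and after quantile normalization 6 of them fell. CDKN1A, the CDK inhibitor p21, fell by 0.88 ± 0.17 (adjusted p = 0.000591), with −1.54 to −0.64 in H1299shRAD9 and −1.13 to 0.29 in H1299, and held in both reduced fits. CDKN1C, the inhibitor p57, fell by 0.91 ± 0.25 but was not called without the 3 H1299 arrays (−0.52, adjusted p = 0.0478). H1299 cells lack p53, and of 25 tested p53 target genes 2 fell (CDKN1A and BTG2) and 2 rose (AEN and POLH). The share called was 16%, below the 23.5% of all features. Neither rise was called under all 5 scalings or in both reduced fits, and POLH was not called without the 3 H1299 arrays (0.38, adjusted p = 0.0285). In the BCL2 family BID and BCL2L12 rose by 0.56 ± 0.10 and 0.53 ± 0.12 (adjusted p = 0.00044 and 0.00256) in the full and both reduced fits, and BIK fell by 0.63. With 15 genes tested, the share called was 20%, also below that of all features. The call of BCL2L12 did not hold under all 5 scalings.

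Many genes of secreted bystander signals gave no signal well above background. Of 23 cytokines and chemokines in the list 8 passed the filter on background and 5 were tested. CXCL1 had levels of 0.91, 0.99 and 1.55 in H1299shRAD9 and −0.06, 0.50 and 1.2 in H1299 (lowest, median and highest). The ranges overlapped, and CXCL1 rose by 0.64 ± 0.14 (adjusted p = 0.0018), also in both reduced fits. CXCL2 differed by −0.03. IL1A, IL1B, CXCL8 and CCL5 were well above background on 0 of the 20 arrays. CCL2, a monocyte chemokine, was well above background on 0 H1299shRAD9 and all 10 H1299 arrays and was at least 1.91-fold higher in H1299. PTGS2, the inducible cyclooxygenase, was above background on 1 and 0 arrays, and of 4 tested prostaglandin genes the prostaglandin E receptor PTGER1 fell by 1.1 ± 0.20 (adjusted p = 0.000349), though not in both reduced fits.

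Connexins form the gap junctions. GJC1, a cardiac and vascular connexin, lay at 6.87 to 7.57 in H1299shRAD9 and at 6.23 to 6.69 in H1299. The lines did not overlap, and GJC1 rose by 0.74 ± 0.11 (adjusted p = 5.4e-05). It held in both reduced fits. GJB2, an epithelial connexin, was well above background on 0 H1299shRAD9 and all 10 H1299 arrays, at least 3.32-fold higher in H1299, and GJA1, the most widespread connexin, on 0 and 4 arrays. The 5 tested connexin and pannexin genes thus held 1 rise and 1 fall.

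Within the receiving pathways, ICAM1, an adhesion molecule induced by NF-kappaB, spanned −1.33 to 1.21 with a median of −0.97 in H1299shRAD9 and 1.43 to 2.30 with a median of 1.81 in H1299. It fell by 2.08 ± 0.33 (adjusted p = 8.97e-05) without overlap, and its difference was −2.94 without H1299shRAD9 replicates 1 and 2 and −0.81 without replicates 3 to 5. Of 14 tested genes of the NF-kappaB list 2 rose, the kinase subunit CHUK (0.45) and the inhibitor NFKBIB (0.61). TRAF1 (−0.48) fell with ICAM1 (28.6% called, against 23.5% of all features). Among 15 tested p38 and JNK kinase genes 3 rose and 2 fell (33.3% called). MAP2K3, which activates p38, rose by 0.55 ± 0.11 (adjusted p = 0.00114), and MAPK12, the gamma form of p38, fell by 0.77 ± 0.13 (adjusted p = 0.000187), both also in both reduced fits. After quantile normalization MAP2K3 was not called (0.32), and 1 of the 3 rises of this list held under all 5 scalings. In the list of the IL4 receptor and STAT6 pathway 3 of 8 tested genes fell and 0 rose (37.5% called). JAK3 fell by 1.33 ± 0.26 (adjusted p = 0.000622) and held in both reduced fits, and IL13RA1 (−0.54) and SOCS1 fell in the full fit. In the IGF list 2 of 7 tested genes rose and 1 fell (42.9% called). IGFBP2 fell, and the RNA-binding proteins IGF2BP1 (0.55) and IGF2BP2 (0.40) rose, not under all scalings. Over all lists 108 of 451 distinct tested genes were called, 51 higher and 57 lower, a share close to the 23.5% of all features. After 75th percentile scaling the split was 33 higher and 75 lower.

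**Figure D3:**
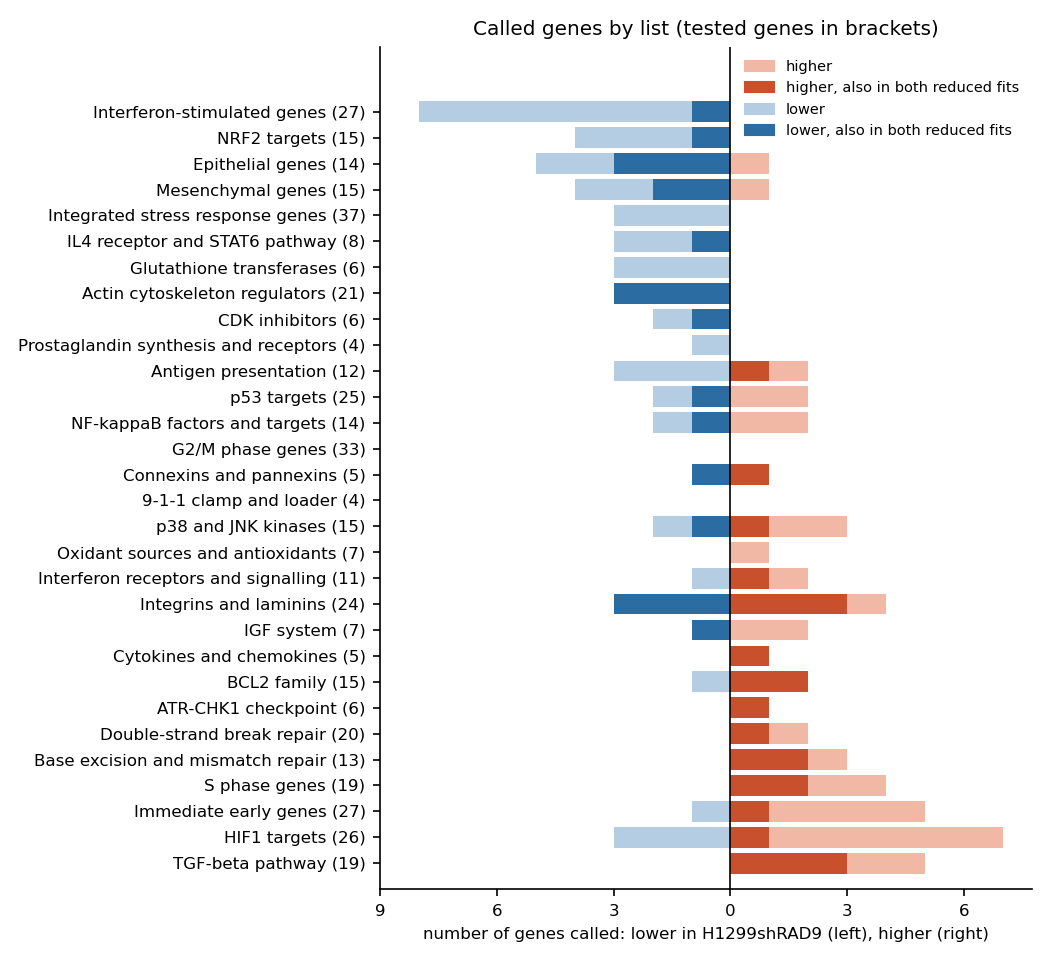
Number of called genes (x axis) in each gene list (y axis, tested genes in brackets), with genes higher in H1299shRAD9 to the right and lower to the left of 0. Dark bars are the calls that were also made in both reduced fits, such as 3 of 3 actin regulators, 3 of 5 TGF-beta genes and 1 of 8 interferon-stimulated genes.

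Markers of other cell types were checked beside these lists. Of the 4 tested leukocyte markers PTPRC rose by 0.91 and CD68 fell by 0.75, neither in both reduced fits, and CD3E was well above background on 7 and 8 arrays of the 2 lines. The tested fibroblast marker and the 4 tested alveolar markers were not called. Their part in the results above was not tested.

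The line difference was alike in BP and BN as far as these arrays could show. Within BP alone 916 features (7.52%) were called, 505 higher and 411 lower, and within BN alone 1025 (8.41%), 511 higher and 514 lower. The BP count was 575, 545 or 523 when H1299shRAD9 BP replicate 3, 4 or 5 was left out. Of the 2858 features called over both groups 882 were called in BP and 912 in BN, 494 of them in both, and all 2858 had the same sign in the 2 groups. Since these groups are the data of the joint fit, the shared sign is partly built in. For all tested features the sign was the same for 9999 (82.1%). The interaction of line with BP or BN had 0 called features (0%) in limma, 134 (1.1%) at an unadjusted p under 0.05 and a smallest adjusted p of 1, and the random-variance test also called 0. With no interaction a share of about 0.05 would fall under that p, so the test was cautious and its silence is weak evidence of likeness. With line and replicate as a random block 325 features were under 0.05 and 0 were called. The 95% interval of an interaction had a median half-width of 0.67, so that differences between BP and BN smaller than this would mostly go unseen. PDE2A differed by −3.81 in both groups, BAMBI by −2.83 in BP and −3.08 in BN, and ADAMTS6 by 1.62 and 1.87. NUPR1 had the widest gap of the 24 features, with −2.09 in BP, where 1 of the 3 high H1299 arrays lies, and −2.99 in BN, where the other 2 lie.

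The same comparison was made on the CTL arrays, which share no array with the bystander comparison. In CTL 1887 features (15.5%) were called, 955 higher and 932 lower. Of the 2858 bystander calls 2821 (98.7%) had the same direction in CTL. Both comparisons called 1237 features in the same direction, which was 43.3% of the bystander calls and 65.6% of the CTL calls, and 0 features were called in opposite directions. Of the 1861 calls made under all 5 scalings, 1068 (57.4%) were also CTL calls. A direct test of the bystander line difference against the CTL line difference called 0 features (0%) in limma, with 424 (3.48%) at an unadjusted p under 0.05 and a smallest adjusted p of 1, and the random-variance test also called 0. This share, too, was below 0.05. With line and replicate as a random block 857 features were at an unadjusted p under 0.05 and 0 were called. Leaving out H1299 CTL replicate 4 gave 1 called feature. The 95% interval of this contrast had a median half-width of 0.544.

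For the 24 features with the largest falls and rises the CTL values were close to the bystander values, and 23 were also called in CTL. PDE2A differed by −3.81 in bystander cells and −3.56 in CTL, FTCD by −3.05 and −3.37, IGFBP2 by −2.56 and −2.54, and BAMBI by −2.95 and −2.58. Among rises, THBS1 differed by 1.33 and 1.43 and ADAMTS6 by 1.74 and 1.83. DSP, at −2.86 and −2.76, was not called in CTL (adjusted p = 0.0494). Of list genes, UNG (0.66 and 0.48), RAD51D (0.46 and 0.23), SOCS3 (0.41 and 0.36), PSMB10 (0.59 and 0.44), BID (0.56 and 0.37) and ITGA5 (−0.59 and −0.50) were called in bystander cells and not in CTL, and the contrast between the 2 conditions was not called for any of them.

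**Figure D4:**
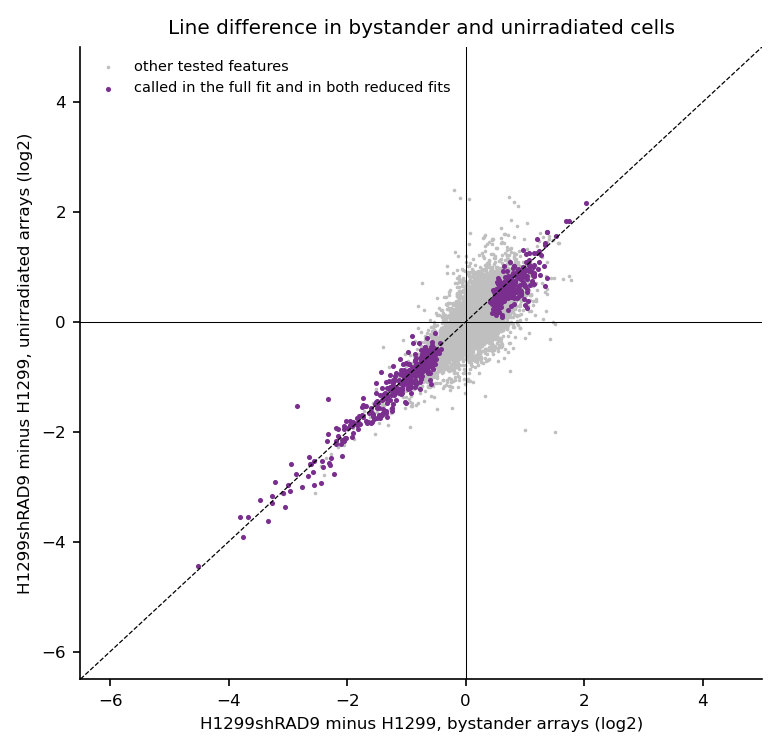
Each point is a tested feature, with the difference H1299shRAD9 minus H1299 (log2) on bystander arrays on the x axis and on unirradiated arrays on the y axis; the dashed line marks equal values. The 672 features called in the full fit and both reduced fits (purple) lie near that line, with 1237 of the 2858 bystander calls also called in CTL.

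A number of genes divided the H1299shRAD9 arrays more strongly than the lines differed. STAT6, a transcription factor of IL4 signalling, was at −3.27 to −3.05 on the 4 H1299shRAD9 arrays numbered 1 and 2, where it was above background on 0, and at 3.47 to 4.03 on the other 6. The H1299 arrays lay between them, at 1.28 to 2.17. RXRA, a nuclear receptor partner, was at −4.65 to −3.90 on the 4, also above background on 0, at 1.63 to 2.23 on the 6 and at 0.69 to 1.84 in H1299. Both genes were thus far below H1299 on the 4 arrays and at or above it on the 6.

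The reverse was seen for ADCY7, an adenylate cyclase, which was at 1.58 to 1.66 on the 4 arrays, −2.66 to −1.96 on the 6 and −1.40 to −0.40 in H1299. CLEC11A, a secreted growth factor of bone marrow, was at 6.94 to 7.15 on the 4 arrays and 6.55 to 7.58 in H1299, but at 1.43 to 1.71 on the 6. PXDN, a matrix peroxidase, was at 5.62 to 5.81 on the 4 arrays, 4.61 to 5.42 in H1299 and 0.18 to 0.95 on the 6. MGMT, which repairs alkylated guanine, was at 2.72 to 3.01 on the 4 arrays, 2.17 to 2.72 in H1299 and −1.53 to −0.99 on the 6. CLEC11A, PXDN and MGMT were near the H1299 level on the 4 arrays and far below it on the 6.

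In all, 44 features had a gap of more than 2 on the log2 scale between the 4 and the 6 arrays, against 0 for the same split of the H1299 arrays. The split returned on the CTL arrays, which are other samples. STAT6 was at −2.40 and −1.99 on H1299shRAD9 CTL replicates 1 and 2 and at 3.88, 3.74 and 3.58 on replicates 3, 4 and 5. Of the 3282 features that divided the bystander arrays, 2949 (89.9%) divided the 5 CTL arrays the same way and 4 the opposite way, while 6497 of all tested features (53.6%) divided 2 against 3 arrays in either direction. As a result 71 features were called in opposite directions in the 2 reduced fits. Without the 4 arrays STAT6 differed by 1.95 (limma, adjusted p = 7.04e-09) and RXRA by 0.93. Without the 6 both were lower in H1299shRAD9, and no size is given because neither was well above background on any of the 4 arrays. ADCY7 differed by −1.32 and 2.52 in the 2 reduced fits, and was well above background on 2 of the 6 arrays. GBP2, an interferon-induced GTPase, differed by −1.98 and 1.5, and was well above background on 6 of 10 H1299shRAD9 arrays. Since the transfectant of each array is not in the labels, transfectant, replicate number and anything that went with it cannot be told apart here.

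**Figure D5:**
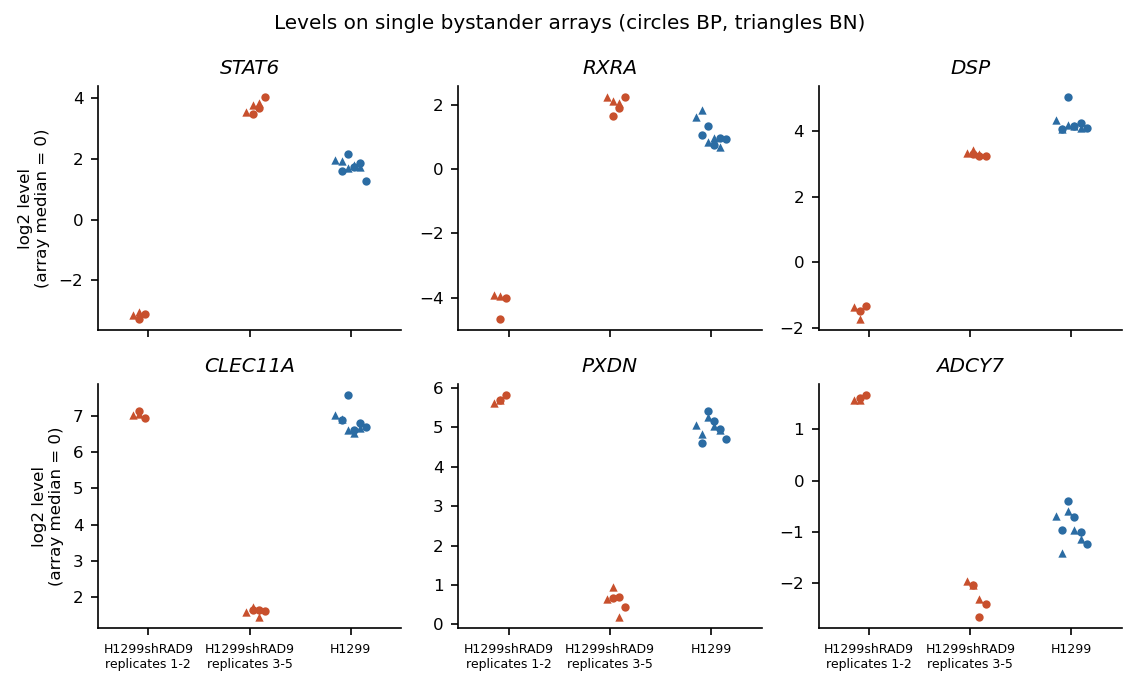
Levels (y axis, log2 relative to the array median) of 6 genes on single bystander arrays, grouped on the x axis as H1299shRAD9 replicates 1 and 2 (4 arrays), H1299shRAD9 replicates 3 to 5 (6 arrays) and H1299 (10 arrays), with circles for BP and triangles for BN. STAT6 is at −3.27 to −3.05, 3.47 to 4.03 and 1.28 to 2.17 in the 3 sets.

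Slides were almost fully confounded with the lines. The bystander arrays lay on 12 slides, of which 1 held both lines, with H1299shRAD9 BP replicate 1 and H1299 BN replicate 1 and BP replicate 5. On that slide 2645 of 2854 called features with a value (92.7%) differed in the direction of the whole fit, against 67.6% of all tested features, though these 3 arrays are part of the fit. All 24 features with the largest falls and rises kept their direction there, with −5.70 to −0.95 for the falls and 0.99 to 2.09 for the rises. Among list genes, TNC (0.61), PARP9 (0.24), IL13RA1 (0.40), CD68 (0.08) and PTPRC (−0.21) had the opposite sign on that slide, and GBP1 was at −0.02. The H1299shRAD9 array there is 1 of the 4 numbered 1 and 2, and H1299 BN replicate 1 is 1 of the 3 set apart. Without H1299shRAD9 replicates 3 to 5 TNC differed by 0.22, GBP1 by −0.21, IL13RA1 by −0.22, CD68 by −0.32 and PTPRC by 0.81. Slide and replicate split cannot be told apart on that slide. With slide as a block, which leaves the comparison to that slide, 83 features were called, 17 higher and 66 lower, with PDE2A (adjusted p = 0.00305), FTCD (adjusted p = 0.00608) and IGFBP2 (adjusted p = 0.00305) among them. With slide as a random block 2485 were called. Beyond that slide, line and slide cannot be told apart.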

How the data were processed

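Total RNA of the 50 samples was measured on Agilent 1-colour microarrays. Per the file headers, Feature Extraction 11.5.1.1 turned each scan into processed signal intensities, corrected for background, and marked every spot as well above background or not (annotation on hg19). The authors also deposited normalized log2 values for a filtered set of probes, whose direction and scale followed the scanner values and which served as an alternative. No column of the authors' own comparisons was used. Here 43118 non-control spots were averaged into 34127 probes, and log2 intensity was centred on each array's median over probes. Features were dropped if they lacked signal well above background on 25% or more of the 50 arrays, which left 20078. Of these, 12185 were at least 1.3-fold from their median on at least 20% of the arrays and were tested. Fits used limma 3.58.1 in R 4.3.3 on the 20 bystander arrays, with line and exposure group (BP or BN) as terms. Calls needed p under 0.005 and a Benjamini-Hochberg false discovery rate under 10% over all tested features. In all, 645 missing values were dropped from their features' fits. Single values were tested by exact permutation of the lines within BP and BN, 2-sided over 63504 labelings. The number of arrays limits the precision of every value. Scripts were tested on simulated data.

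Genes were named through 24965 accessions, 2930 symbols and 558 older symbols, and 5674 probes had none. The text names RAD9A, the 12 called features of each direction with the largest difference whose lines do not overlap and which were well above background on at least 8 arrays of each line, up to 4 called genes per list and the 8 largest bounds among features seen in 1 line. Where several features read a gene, the brightest stands for it. Other genes, the genes of the replicate split and the 3 H1299 arrays left out were chosen after their values were seen. The members and gene lists were chosen with earlier results of these data known. Alternatives were other scalings, background correction, filters, tests, blocks and arrays left out. Some genes that met these rules are counted but not reported here.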

Additional observations from a re-analysis of the deposited data

Results flagged for a closer look

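In 17 of 228 sets of 10 bystander arrays of a line (7.46%), covering the named genes and 3 quality measures, the highest or lowest array stood apart from the nearest other by more of the whole range than Dixon's 95% critical value, which chance passes in about 1 of 20 sets. The sets share arrays and are not independent.

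H1299 BP replicate 2 gave 7 of them. It was the highest array for DSP (5.04), CLDN3 (2.85), JUP (2.49) and GSTM3 (5.41) and the lowest for NAA38 (−2.76), UHRF1 (4.98) and AEN (−0.03). H1299 BN replicate 2 gave 4, as the lowest array for TWIST2 (3.19) and the highest for NFKBIB (4.48), TRAF1 (2.46) and PMEPA1 (3.11). Both are among the 3 H1299 arrays with high levels of integrated stress response genes.

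Among the H1299shRAD9 arrays the highest values that stood apart were those of THC2610134 on BP replicate 3 (1.64), ANGPTL4 on BP replicate 5 (7.47), CCN1 on BN replicate 5 (10.58) and MAPK8 on BN replicate 4 (2.06). The lowest were those of IFIT2 on BN replicate 5 (0.75) and AEN on BP replicate 1 (2.14).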

How the results depend on the processing

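The count of called features between the lines was 2858. It was 1813 after normexp correction (1540 higher, 273 lower), 1753 over means of same-numbered BP and BN arrays, 1434 without H1299shRAD9 replicates 3 to 5 and 83 with slide as a block. The other alternatives stayed between 2046 (the authors' values, 667 higher and 1379 lower) and 3982 (no variation filter), with 2404 after 75th percentile scaling (882 higher, 1522 lower), 2306 after quantile normalization (964 higher, 1342 lower) and 2890 without the 3 H1299 arrays, a setting chosen after seeing the data. Leaving out single arrays gave 2451 to 2920. Within BP the count of 916 became 1383 with the 5′ to 3′ index as a covariate, 225 without H1299shRAD9 replicates 3 to 5, and 523 to 1064 without single arrays, the lowest being 523, 545 and 575 without H1299shRAD9 BP replicates 5, 4 and 3. Within BN it was 1025, with 0 after normexp correction (2948 at an unadjusted p under 0.05) and 546 without H1299shRAD9 replicates 3 to 5. After normexp correction the median of the tested features was 0.64 on H1299 BN replicate 1 and 0.34 on BN replicate 5, against 1.29 to 1.71 on the other bystander arrays. In CTL it was 1887, and 214 with the index as a covariate. The contrast of bystander with CTL had 0 calls, and 0 to 1 without single arrays.

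The 108 calls among list genes became 71 after normexp correction and 8 with slide as a block. The RAD9A difference of −0.12 passed an exact p of 0.05 after 75th percentile scaling (−0.22), after quantile normalization (−0.23) and without H1299shRAD9 replicates 1 and 2 (−0.26), and spanned −0.16 to −0.07 without single arrays. Signs turned for HLA-F after normexp correction (0.05), for STAT6 in the authors' values (1.81) and without replicates 1 and 2 (1.95), for ADCY7 without replicates 1 and 2 (−1.32) and for TNC without replicates 3 to 5 (0.22). With slide as a block they turned for TNC (0.88), IL13RA1 (0.45), HK1 (0.01), GBP1 (0.04), PTPRC (−0.06) and CD68 (0.1). The cause was not tested. Slide and line were confounded on all slides but 1, and the H1299shRAD9 array on that slide was BP replicate 1, from the replicates that stood apart.

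Same-numbered arrays of the lines did not deviate together (mean correlation −0.052 in BP and 0.002 in BN), so the numbers were not taken as pairs. With replicate number as a block the counts were 3093 over both groups, 692 in BP, 935 in BN, 1296 in CTL, 0 in both interactions and 118 among list genes. Of 106 named gene values, 88 kept their call without H1299shRAD9 replicates 1 and 2, 61 without replicates 3 to 5, 93 without the 3 H1299 arrays, 91 with line and replicate as a random block, 84 over means of same-numbered arrays and 14 with slide as a block (6 with the opposite sign). After normexp correction 73 of 103 did. Within a line, same-numbered BP and BN arrays correlated at 0.352 in H1299shRAD9 and 0.19 in H1299, and with line and replicate as a random block the count was 2100.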
